A study of Mus musculus with 27 samples.

Results

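The enhancer mark H3K4me1 in adult mouse hematopoietic stem cells (HSC) was set against the activity mark H3K27ac in adult hematopoietic progenitor cells (HPC). All 63108 H3K27ac peaks of adult HPC and all 143571 H3K4me1 peaks of adult HSC were used, 206679 of the 846830 peaks in the 7 peak lists drawn on. An H3K27ac peak was counted as marked when it overlapped an HSC H3K4me1 peak by at least 1 bp, and otherwise as unmarked. An H3K4me1 peak was counted as acetylated when it overlapped an HPC H3K27ac peak by at least 1 bp, and otherwise as unacetylated. These names describe the overlap of 2 cell populations sorted separately. They do not follow a site through time, and a site without a called peak may still bear the mark.

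HSC renew themselves and give rise to HPC, which divide faster and enter the blood lineages. Methyl groups on lysine 4 of histone H3, in the single-methyl form H3K4me1, lie on enhancers that are active and on enhancers that are only primed, and on the flanks of active promoters. Acetylation of lysine 27, H3K27ac, is found on enhancers and promoters in use, and trimethylation of the same residue, H3K27me3, is the mark that Polycomb complexes leave on silent developmental genes.

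The mice were 8 weeks old and on the B6 background, with no other allele or treatment in the labels. Cells were sorted and then fixed, and marked chromatin was pulled down and tagged with the Tn5 transposase, a protocol named ChIPmentation. The HSC H3K4me1 list pooled 4 libraries and the HPC H3K27ac list pooled 3. For comparison, adult HPC H3K4me1 (3 libraries), fetal HSC H3K4me1, fetal HPC H3K4me1 and fetal HPC H3K27ac (from E16.5 embryos, 3 libraries each) were used, with a second K27 set of adult HPC (3 libraries) whose titles read H3K27me3 and whose mark field reads H3K27ac. The labels used here name neither sort gates, sex nor the number of mice per library. Each list is 1 pooled result without replicate values, so no test across samples was possible and no p-value is given. Shares carry 95% Wilson intervals and differences of shares 95% Newcombe intervals. Both cover counting error only, and neighbouring peaks are not independent. Median width was 700 bp for H3K27ac and 642 bp for HSC H3K4me1, and read depth is unknown.

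To show the classes, 6 gene starts are printed as the 250 bases before the start, with CpG pairs in capitals. They were taken from RefSeq (GRCm38.p6) and are read in the direction of transcription. Flt3, a receptor tyrosine kinase of early lymphoid and multipotent progenitors, had a marked H3K27ac peak over its start (chr5:147396892-147402221, fold 36.7). Fold is the authors' enrichment of signal over background at a peak, and was compared only within a list. Mllt3, which sustains HSC self-renewal, and Hprt, a purine salvage enzyme encoded on chromosome X, had unmarked H3K27ac peaks there, of fold 6.31 and 17.0. These peaks lay only 91 and 336 bp from the nearest HSC H3K4me1. Epor, the erythropoietin receptor, Rag1, the recombinase of lymphocytes, and Lhx2, a LIM homeobox regulator silent in blood, had unacetylated HSC H3K4me1 peaks, of fold 4.49, 3.85 and 2.49. The printed stretches hold 25 CpG pairs for Lhx2, 23 for Mllt3, 17 for Hprt, 13 for Flt3, 6 for Epor and 3 for Rag1.
Flt3 (chr5:147400490-147400739, minus strand): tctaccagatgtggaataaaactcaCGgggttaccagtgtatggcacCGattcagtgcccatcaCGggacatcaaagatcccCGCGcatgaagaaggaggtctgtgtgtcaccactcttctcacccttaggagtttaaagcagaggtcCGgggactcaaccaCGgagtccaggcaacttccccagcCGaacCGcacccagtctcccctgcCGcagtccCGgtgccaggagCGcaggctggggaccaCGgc
Mllt3 (chr4:88033408-88033657, minus strand): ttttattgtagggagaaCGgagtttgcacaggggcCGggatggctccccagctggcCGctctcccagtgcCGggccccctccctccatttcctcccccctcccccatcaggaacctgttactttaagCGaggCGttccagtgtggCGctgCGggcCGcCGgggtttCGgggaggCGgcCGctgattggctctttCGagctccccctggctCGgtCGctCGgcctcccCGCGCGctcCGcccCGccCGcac
Hprt (chrX:52987828-52988077, plus strand): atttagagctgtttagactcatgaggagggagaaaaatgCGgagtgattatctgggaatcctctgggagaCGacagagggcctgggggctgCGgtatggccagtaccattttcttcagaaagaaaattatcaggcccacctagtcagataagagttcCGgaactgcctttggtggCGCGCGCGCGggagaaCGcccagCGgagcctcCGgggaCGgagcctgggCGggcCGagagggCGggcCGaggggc
Epor (chr9:21963577-21963826, minus strand): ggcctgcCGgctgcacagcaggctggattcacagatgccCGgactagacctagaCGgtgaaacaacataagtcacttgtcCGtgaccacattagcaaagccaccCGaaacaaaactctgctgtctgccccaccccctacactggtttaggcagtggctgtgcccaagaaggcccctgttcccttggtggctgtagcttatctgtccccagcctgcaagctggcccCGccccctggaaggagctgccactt
Rag1 (chr2:101649533-101649782, minus strand): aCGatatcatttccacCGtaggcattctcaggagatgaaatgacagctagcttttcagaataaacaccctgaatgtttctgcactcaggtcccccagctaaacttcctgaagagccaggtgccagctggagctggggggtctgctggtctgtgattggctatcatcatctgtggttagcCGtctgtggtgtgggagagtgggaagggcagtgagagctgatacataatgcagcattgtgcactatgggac
Lhx2 (chr2:38339031-38339280, plus strand): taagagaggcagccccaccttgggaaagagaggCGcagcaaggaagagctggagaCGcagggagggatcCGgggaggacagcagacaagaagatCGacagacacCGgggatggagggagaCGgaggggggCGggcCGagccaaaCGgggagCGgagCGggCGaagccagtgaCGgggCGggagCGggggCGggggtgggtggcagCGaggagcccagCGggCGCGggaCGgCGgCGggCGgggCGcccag

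Most acetylated sites of progenitors lay on sites with H3K4me1 in stem cells. Of 63108 H3K27ac peaks, 51393 (81.4%, 81.1 to 81.7) were marked and 11715 (18.6%) were unmarked. Marked peaks covered 66.5 Mb and unmarked ones 5.34 Mb. Unmarked peaks were narrow, with a median width of 363 bp against 888 bp, and weak, with a median fold of 2.63 against 3.50. Among the strongest 20000 H3K27ac peaks by −log10 p, the authors' peak score, 596 (2.98%) were unmarked.

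The share marked depended on strength. Split into 10 equal groups by −log10 p, H3K27ac peaks were marked in 98.6% of the strongest group, 87.6% of the fifth and 56.5% of the weakest. Conversely, most stem cell H3K4me1 peaks were not acetylated in progenitors: 92342 of 143571 (64.3%, 64.1 to 64.6) were unacetylated. By bases the order turned, since acetylated H3K4me1 peaks covered 91.5 Mb and unacetylated ones 63.2 Mb. Among the strongest 20000 H3K4me1 peaks 3785 (18.9%) were unacetylated, and with the strongest 50000 of every list 39.3% were. From the strongest to the weakest group the acetylated share went from 84.9% to 11.1%, as the plot by strength shows.

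**Figure D1:**
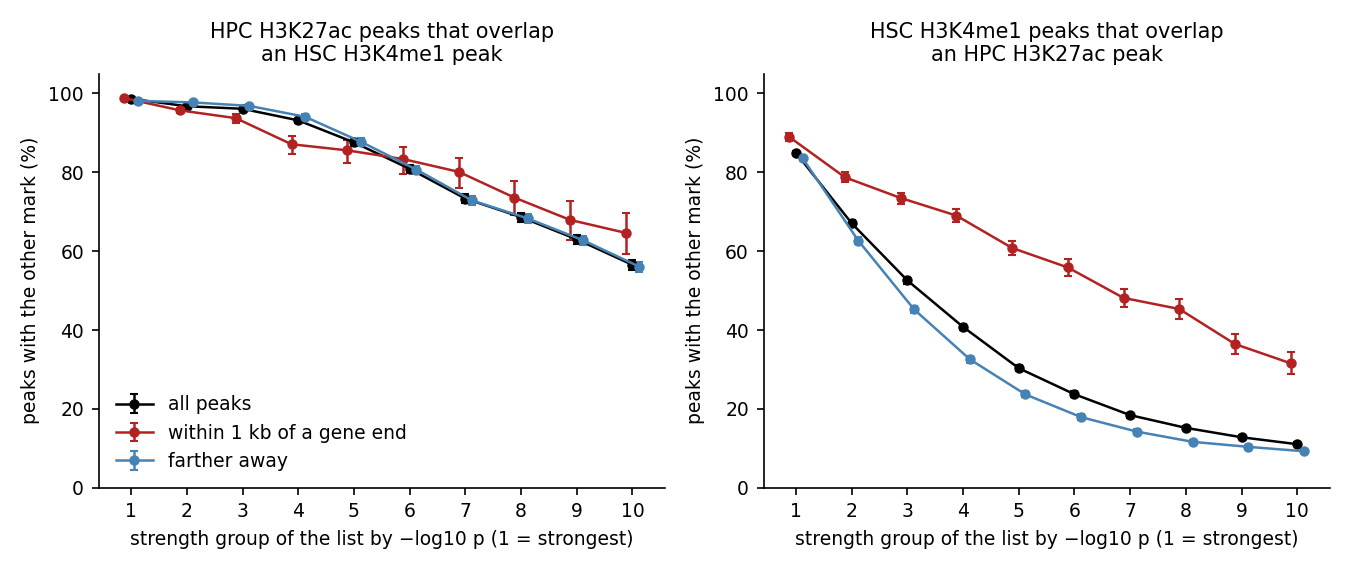
Share of peaks (%, vertical axis) that overlap a peak of the other mark, by strength group of the list (horizontal axis, 1 is the strongest), for all peaks, peaks within 1 kb of a gene end and peaks farther away, with 95% Wilson intervals. H3K27ac peaks near gene ends run below distal ones in groups 2 to 5 and above them in groups 6 to 10, while HSC H3K4me1 peaks near gene ends are acetylated more often in each of the 10 groups.

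Position divided both lists. A peak within 1 kb of either end of a protein-coding gene of the RefSeq table is called a gene-end peak, and all others distal. Of 12586 gene-end H3K27ac peaks, 11621 (92.3%, 91.9 to 92.8) were marked. Inside genes 80.4% were marked, within 10 kb outside 80.7%, from 10 to 100 kb 75.3%, and beyond 100 kb 72.4% (70.9 to 73.9).

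The high share at gene ends went with strength, but the fall with distance outside genes was steeper than strength would give. Gene-end peaks were strong, with a median fold of 8.70, and the shares of the strength groups applied to them would give 92.5%. Gene-end peaks exceeded distal ones by 13.6 percentage points (13.0 to 14.2) over the list. Within strength groups the difference ran from -6.98 points in the fourth to 8.54 points in the weakest, and among the strongest 20000 peaks it was -0.494 points. Within 10 kb outside, observed and strength-given shares were both 80.7%. From 10 to 100 kb the observed 75.3% was below the 79.0% that strength would give. Beyond 100 kb 72.4% was below 77.6%, and inside genes the observed 80.4% was above 78.3%.

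The place of the H3K4me1 within an acetylated site differed between gene starts and distal sites. Of 9878 H3K27ac peaks within 1 kb of a gene start, 93.7% were marked, but only 23.3% (22.4 to 24.1) had their summit, the base of highest signal, inside an HSC H3K4me1 peak. Inside genes that share was 72.2% (71.7 to 72.7). Gene-start peaks that were marked were wide, with a median of 1870 bp, and the H3K4me1 covered a median of 50.6% of their length. Where the summit was outside, it lay a median of 341 bp from the H3K4me1. So stem cell H3K4me1 lay beside the acetylation summit at most gene starts and over it at most distal sites.

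Strength did not remove that contrast. Among the strongest 20000 peaks, 14.7% of 8013 gene-start summits and 82.3% of 10591 distal summits lay inside HSC H3K4me1. Against the H3K4me1 of HPC themselves, 26.3% of gene-start summits lay inside. Counted by summit instead of by any overlap, the gene-end share marked minus the distal one was -41.2 points in place of 13.6.

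**Figure D2:**
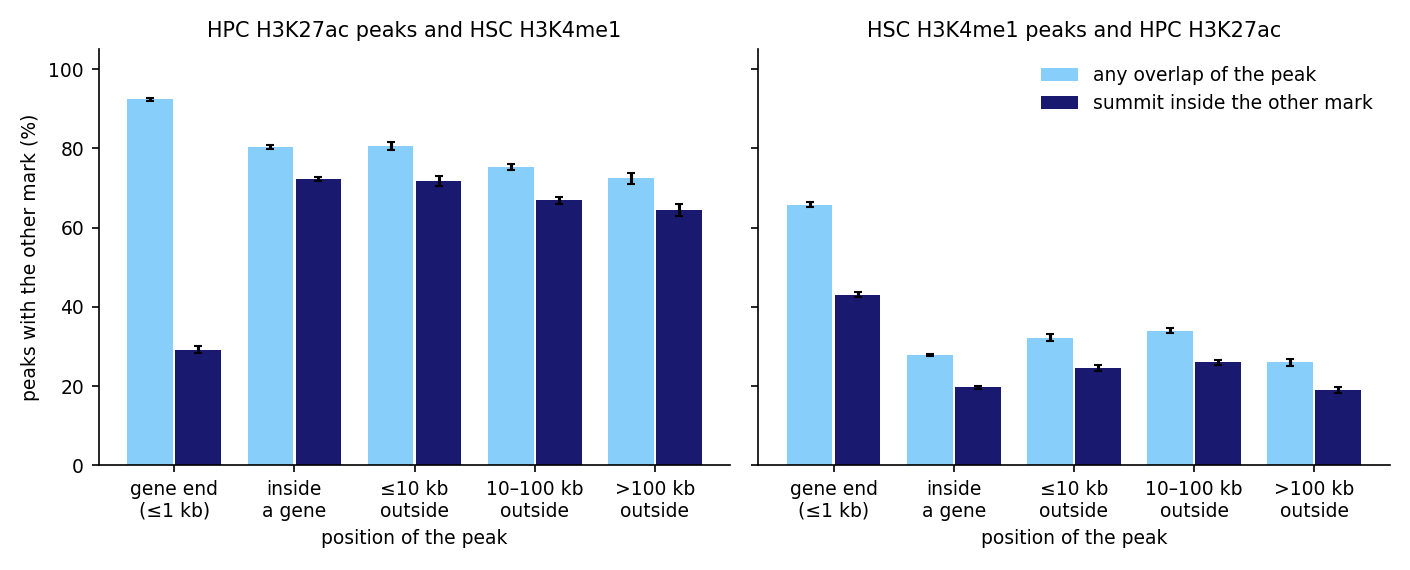
Share of peaks (%, vertical axis) with the other mark by position class (horizontal axis), counted by any overlap (light bars) and by the summit (dark bars), with 95% Wilson intervals. At gene ends 92.3% of H3K27ac peaks touch HSC H3K4me1 but 29.2% have their summit in it, whereas inside genes the values are 80.4% and 72.2%.

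Stem cell H3K4me1 was unacetylated more often away from gene ends. Unacetylated peaks made up 34.2% of the 25096 gene-end H3K4me1 peaks, where the strength groups would give 55.4%. They made up 72.1% inside genes, 67.8% within 10 kb, 66.0% from 10 to 100 kb and 74.0% beyond 100 kb. The gene-end share minus the distal share was -36.4 points (-37.1 to -35.8), and it was negative in each of the 10 groups, from -5.40 to -37.9 points. Gene starts had 27.2% unacetylated and the other gene ends 49.9%.

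Unmarked H3K27ac peaks were often close to HSC H3K4me1 without touching it. Their median gap to the nearest HSC H3K4me1 peak was 2026 bp, and 12.7% lay within 200 bp, 37.1% within 1 kb and 69.0% within 5 kb. The strongest unmarked peaks at autosomal gene ends, 169 in number, had a median gap of 210 bp. Unmarked peaks also lay near marked ones, with a median of 5562 bp to the nearest marked H3K27ac peak. Unacetylated H3K4me1 peaks lay a median of 6128 bp from the nearest HPC H3K27ac peak.

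The H3K4me1 list of HPC, which the classes did not use, separated them. Of marked H3K27ac peaks 98.0% also overlapped HPC H3K4me1, against 38.2% (37.3 to 39.1) of unmarked ones, a difference of -59.8 points (-60.7 to -58.9). By both H3K4me1 lists, 50357 H3K27ac peaks (79.8%) had H3K4me1 in both cell types, 4475 (7.09%) in HPC only, 1036 (1.64%) in HSC only and 7240 (11.5%) in neither. At the 4475 sites both marks were called in HPC and no H3K4me1 peak was called in HSC. The samples hold no H3K27ac of HSC, so acetylation of these sites in stem cells is unknown. These 4475 H3K27ac peaks were weak, with a median fold of 2.74, and 272 of them were among the strongest 20000.

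Among HSC H3K4me1 peaks, 96.8% of acetylated and 66.6% of unacetylated ones had H3K4me1 in HPC, and of the strongest unacetylated ones 98.1%. Strong unacetylated peaks of stem cells were thus called with H3K4me1 in progenitors too. A further 30025 unacetylated peaks (32.5%) had neither H3K4me1 in adult HPC nor H3K27ac in fetal HPC, and 66 of these were among the strongest 20000.

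Fetal lists set the classes apart as well. Fetal HSC H3K4me1 overlapped 87.7% of marked and 19.4% of unmarked H3K27ac peaks, and 87.0% of acetylated and 68.5% of unacetylated H3K4me1 peaks. Fetal HPC H3K27ac overlapped 48.6% of marked and 10.4% of unmarked peaks, and 57.8% of acetylated and 4.88% of unacetylated H3K4me1 peaks. Asking 50% cover of both overlaps made the unmarked class larger, since only 67.2% of H3K27ac peaks were then marked. Of that larger class 29.6% overlapped fetal HPC H3K27ac. By any overlap, the gap between marked and unmarked peaks was narrower among the strongest 20000 H3K27ac peaks. There 87.3% (86.8 to 87.8) of marked and 77.7% (74.2 to 80.8) of unmarked ones were acetylated in fetal HPC. The second K27 set touched 2.26% of unacetylated peaks, 7.61% of the strongest of them, and 0.182% of acetylated ones. It touched 10 of 51393 marked and 7 of 11715 unmarked H3K27ac peaks. Most peaks of this set were weak, with 43319 of 54293 below a −log10 q of 2, against 283 of the 63108 H3K27ac peaks.

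The same comparison within fetal cells gave 75.1% of HPC H3K27ac peaks marked and 83.3% of HSC H3K4me1 peaks unacetylated. The adult share marked was higher by 6.33 points (5.85 to 6.81), and by 6.60 points among the strongest 20000 of each list. List lengths differ between the ages, with 231188 fetal and 143571 adult HSC H3K4me1 peaks, and their part in the unacetylated shares was not tested.

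Chromosome X stood apart. Of its 720 H3K27ac peaks 51.4% (47.7 to 55.0) were marked, against 81.8% on autosomes, where the lowest chromosome had 79.2% and the highest 85.0%. At gene ends the shares were 39.9% and 93.8%. Among the strongest 20000 peaks, 169 of 349 on X (48.4%) were unmarked, against 2.15% on autosomes, and 132 of these 169 lay at gene ends. Such unmarked gene-end peaks on X included those at Phf8, a histone demethylase (fold 25.8), and Rlim, a ubiquitin ligase (fold 22.0).

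The H3K27ac and H3K4me1 lists were thin on X, which held 1.14% of H3K27ac, 1.58% of HSC H3K4me1 and 1.57% of HPC H3K4me1 peaks, against 4.41% of coding genes. The second K27 set had 12.4% of its peaks there. Overlap on X was also lower with HPC H3K4me1 (56.8% against 87.2%) and within the fetal pair (44.8% against 75.5%). The copy number of X and the depth there were not tested.

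Most genes with H3K27ac had marked peaks alone, and most genes with HSC H3K4me1 had both kinds. Each peak was given to the nearest coding gene within 100 kb, and 14619 genes had an H3K27ac peak. In 9632 of them all peaks were marked, in 4311 both kinds occurred and in 676 all were unmarked. Of 17083 genes with HSC H3K4me1, 2499 had all of it acetylated, 11421 had both kinds and 3163 had none acetylated.

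The genes with most marked peaks among the strongest were Arid1b, a subunit of the BAF chromatin remodeller, and Foxp1, a forkhead factor, with 22 each. Runx2, a runt factor, had 19, Sgms1, a sphingomyelin synthase, 18, and Runx1, the runt factor required for HSC to form, and Pde4d, a phosphodiesterase, 17 each, as had Zmiz1, a SUMO ligase family member. At Arid1b 103 of 108 H3K27ac peaks were marked and at Etv6, an ETS repressor that HSC need, 112 of 119. At Runx1 69 of 79 were marked, and the 10 others had folds of 2.34 to 3.12 against up to 17.0. The 5 strongest marked peaks of the list lay at Hjurp, a centromere chaperone, Clk1, a splicing kinase, Unk, Kat5, the TIP60 acetyltransferase, and Btbd9. The peak at Hjurp ranked first by −log10 p with a fold of 24.9, against 61.4 at Clk1.

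Flt3 had the highest unmarked share of the 444 genes with at least 20 H3K27ac peaks, 19 of 25 (76.0%), where the median gene had 18.5% and the strength groups would give Flt3 5.20 peaks. The gene lies on chr5:147330741-147400489. Its 6 marked peaks covered 31.2 kb, with folds from 3.19 to 36.7, and the 19 unmarked ones 13.6 kb, with folds from 2.12 to 5.18. Of the unmarked peaks 18 lay in the gene body, most of them between marked ones. The strongest, chr5:147372390-147374974, lay 175 bp from HSC H3K4me1 and had H3K4me1 in HPC and in fetal HSC. Of the 19, 8 (42.1%) had H3K4me1 in HPC and 10 in fetal HSC, against 38.2% and 19.4% over all unmarked peaks. Where a gap of up to 1 kb counted as marked, 14 of 25 were still unmarked.

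Satb1, a chromatin organiser of lymphoid cells, came next with 15 of 20 (75%, strength groups 4.52 peaks), folds from 2.27 to 4.61. Of these 15, 10 (66.7%) had H3K4me1 in HPC and 1 (6.67%) had H3K27ac in fetal HPC. Over all unmarked peaks these shares were 38.2% and 10.4%. Tshz2 (14 of 20) and Kcng1 (18 of 29) followed. Counted by number, unmarked peaks were most frequent at the long genes Snx29 (37 of 97), Trappc9 (32 of 77) and Wwox, an oxidoreductase gene at a fragile site (30 of 64). These last genes, Tshz2, Kcng1 and the place of Flt3 and Satb1 among 444 genes were picked after their values were seen.

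**Figure D3:**
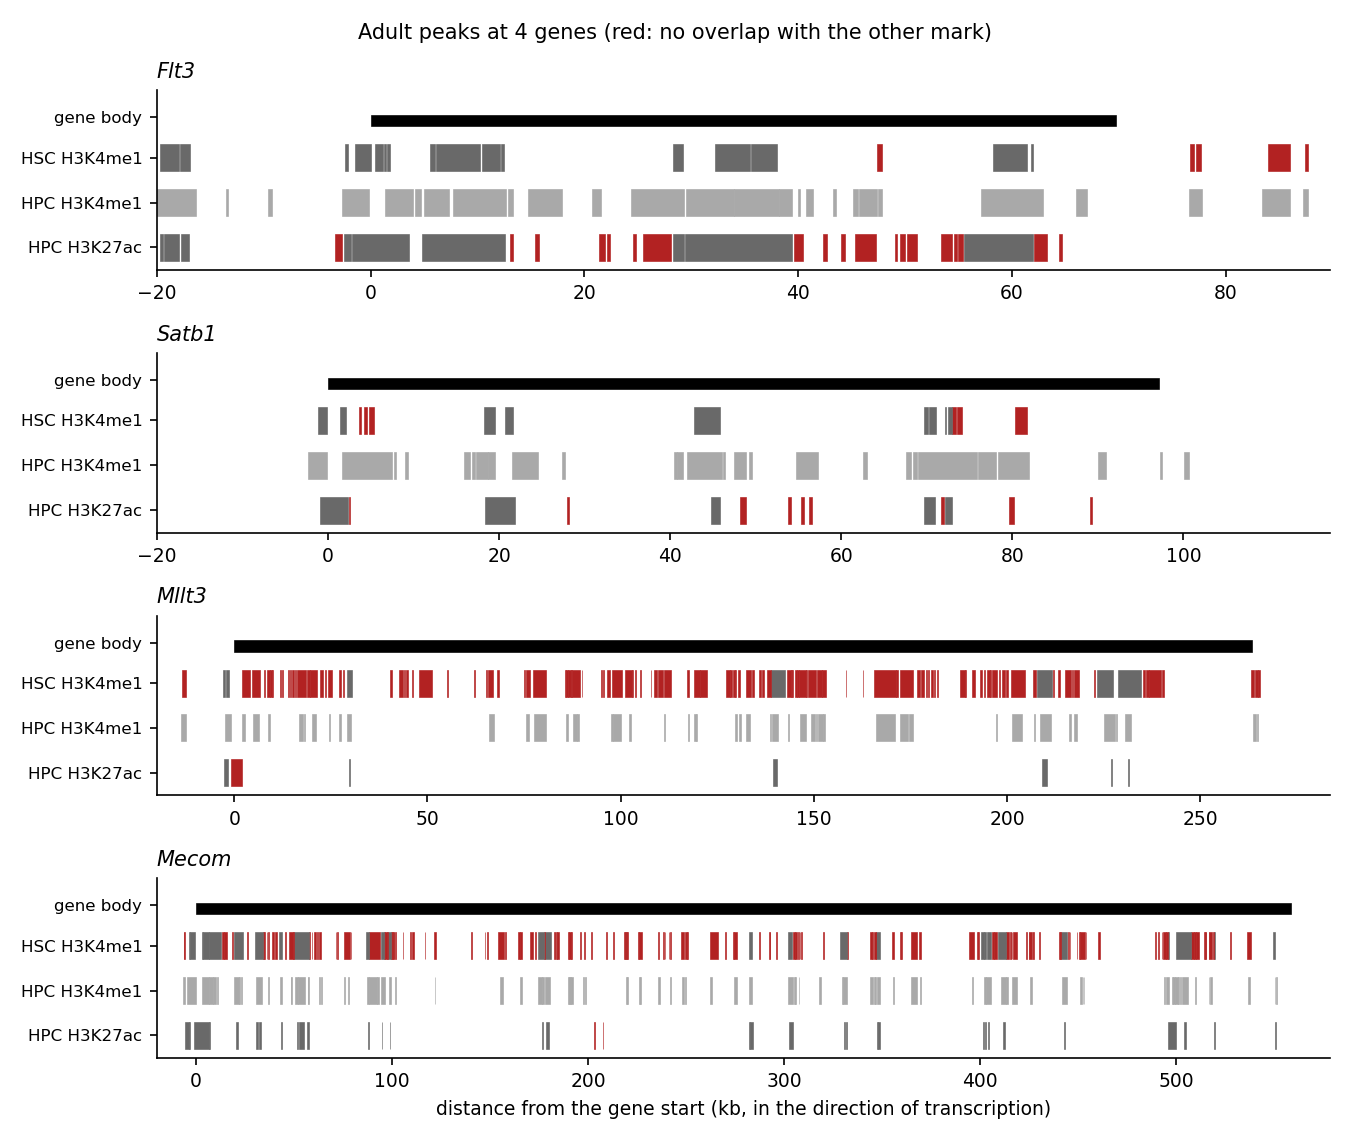
Adult peaks at Flt3, Satb1, Mllt3 and Mecom, by distance from the gene start in the direction of transcription (kb, horizontal axis), for HSC H3K4me1, HPC H3K4me1 and HPC H3K27ac, with the gene body as a black bar and peaks of the compared lists that do not overlap the other mark in red. Red H3K27ac blocks lie between and beside grey ones at Flt3, where 19 of 25 peaks are unmarked, and red H3K4me1 blocks fill Mllt3, where 125 of 135 peaks are unacetylated.

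Of the 6212 genes with at least 3 H3K27ac peaks, 31 had only unmarked ones and 10 of these lay on X. Tnfsf15, a TNF family ligand, had 5, all weak (folds to 2.98), and all 7 of its HSC H3K4me1 peaks were unacetylated. On X, Tlr7, a sensor of viral RNA, had 4 (folds to 3.62), Apex2, an endonuclease of DNA repair, 4 (to 15.5), and Slc25a5, an ADP/ATP carrier, 3 (to 14.2). Asmt had 4 and no HSC H3K4me1 peak. Asmt, in the pseudoautosomal region, and Gm5861, Tagap1 and Sfi1, with near-identical copies, are uncertain, because the placing of reads in repeated sequence is not stated by the labels used here.

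The strongest unmarked peak of the list lay 30907 bp from 4930467E23Rik on chromosome 8. The third lay at LOC108167694 and Gm20783, and the fourth, on chromosome 8, had no gene within 100 kb. The second, chr9:41206982-41208338 (fold 41.6), lay 45289 bp from Ubash3b, a phosphatase of blood cell signalling, and 3350 bp from HSC H3K4me1. The fifth, chr17:84184627-84187423 (fold 31.8), lay at the end of Zfp36l2, an mRNA decay factor needed by HSC, 1441 bp from HSC H3K4me1. All 5 were acetylated in fetal HPC, and only the one at LOC108167694 had H3K4me1 in HPC. Those on chromosome 8 were similar in width (934 and 958 bp) and in gap to HSC H3K4me1 (226 and 272 bp). Whether reads were placed uniquely at these 5 unmarked peaks, or in repeated sequence, was not tested. Tex14 had the most unmarked peaks among the strongest, 4, with folds up to 19.1.

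Several regulators of HSC carried long runs of unacetylated stem cell H3K4me1. Mllt3 (chr4:87769925-88033407) had 135 HSC H3K4me1 peaks, of which 125 were unacetylated, where the strength groups would give 94.9. These 125 covered 108.5 kb with folds from 1.81 to 5.77, against 22.1 kb for the 10 acetylated ones. Of the 125, 45 (36%) had H3K4me1 in HPC and 117 in fetal HSC, against 66.6% and 68.5% over all unacetylated peaks. Most were thus called with H3K4me1 in the stem cells of both ages. The fetal HSC list was longer, with 231188 peaks against 126502 of HPC H3K4me1, and the part of length was not tested. Yet the start of Mllt3 was acetylated in HPC, by the peak chr4:88031465-88034248, which ended 91 bp from HSC H3K4me1 and was counted as unmarked.

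Mecom (chr3:29951296-30509759), a zinc finger factor that HSC need, had 141 of 168 unacetylated, against 114.9 from strength. Angpt1, a ligand of the Tie2 receptor, had 132 of 157. H3K4me1 in HPC lay at 48 of the 141 at Mecom (34.0%) and 71 of the 132 at Angpt1 (53.8%), against 66.6% over all unacetylated peaks. Of the unacetylated peaks 18 at Mecom (12.8%), 18 at Angpt1 (13.6%) and 11 at Tgfbr3 (15.1%) were acetylated in fetal HPC, against 4.88% over the list. Mecom, Angpt1 and Tgfbr3 are among the 10 genes with the most such peaks, a list drawn up after the data were seen. Where a gap of up to 1 kb counted as acetylated, 118 of 135 at Mllt3 and 125 of 168 at Mecom were still unacetylated.

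Counted among the strongest 20000, Mllt3 had 9 unacetylated peaks, Fcgr3, an Fc receptor that activates myeloid cells, 8, and Mecom 7. Pcdh1, a protocadherin, Zbtb16, the PLZF factor of innate lymphoid cells and stem cells, Nfia, Tgfbr3, the TGF-beta coreceptor, and Wnt11, a Wnt ligand, had 6 each. At Zbtb16 46 of 52 were unacetylated, with 26 of these (56.5%) in HPC H3K4me1 and 0 in fetal HPC H3K27ac. Over all unacetylated peaks these shares were 66.6% and 4.88%. At Fcgr3 18 of 19 were unacetylated, with folds to 8.21, and 17 of them had H3K4me1 in HPC. Of the 5 strongest unacetylated peaks of the list, 3 lay at Fcgr3. The others lay near Scaf8 and Sfi1, with folds of only 3.46 and 3.02. Read placing in repeated sequence was not tested for these 5 peaks.

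A small group of genes had strong stem cell H3K4me1 and no H3K27ac peak of their own. Of 2308 genes with at least 3 of the strongest 20000 H3K4me1 peaks, 13 had no H3K27ac peak assigned to them. Mmp9, a matrix protease of granulocytes, had 4 H3K4me1 peaks, all among the strongest, with folds from 4.95 to 8.14 and all with H3K4me1 in HPC. The others were Rhou, a small GTPase (9 peaks, folds to 8.70), Ky, Gdf7, Ltbp4, Il20rb, Kirrel3 and Asic1, and the developmental factors Lhx2, Barx1, Tbx2, Nkx2-5 and Pax9. At Gdf7 1 of 4 and at Asic1 1 of 12 HSC H3K4me1 peaks overlapped an H3K27ac peak nearer to another gene. At Lhx2 14 of 14 peaks had H3K4me1 in HPC and 5 overlapped the second K27 set. At Nkx2-5, the cardiac homeobox gene, the counts were 11 of 11 and 5. Over all unacetylated peaks the shares were 66.6% and 2.26%.

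By gene list, unmarked H3K27ac was below the share over all genes at HSC identity genes and above it at lymphoid priming genes, and at granulocyte and cell cycle genes when peaks up to 100 kb away were counted. Over all genes 17.6% of assigned H3K27ac peaks were unmarked. HSC identity genes had 77 of 610 (12.6%, 10.2 to 15.5), with strength giving 21.8%. Hlf, Meis1 and Gata2, transcription factors of HSC, had 0 of 23, 0 of 45 and 0 of 9 unmarked. Erg, an ETS factor, had 9 of 42, and Msi2, an RNA-binding protein, 22 of 112. Erythroid genes had 10 of 91 (10.99%), 6 of them at Sptb, a spectrin, and Zfpm1, the GATA cofactor, had 0 of 27. Megakaryocyte genes had 22 of 155 (14.2%), and the intervals of both lists held the share over all genes. Strength would give erythroid genes 19.7% and megakaryocyte genes 21.7%, so these lists too lay below it.

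Lymphoid priming genes had 94 of 349 unmarked (26.9%, 22.5 to 31.8), with strength giving 21.5%. Rora, an orphan nuclear receptor of innate lymphoid cells, gave 24 of 72, beside Flt3 and Satb1, and Dntt, the terminal transferase, 7 of 15. Without Rora, Flt3 and Satb1 the share was 15.5%, and the list's excess rested on those genes. Bcl11a, a B cell and globin regulator, had 3 of 80, and Tcf7, the T cell factor, 0 of 11.

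Granulocyte and monocyte genes had 47 of 189 unmarked (24.9%, 19.2 to 31.5), with strength giving 19.99%, and 0 of these were among the strongest. Counting only peaks within 10 kb of a gene gave 15% (9.31 to 23.3), beside 16.0% over all genes. Cebpb, a factor of emergency granulopoiesis, had 11 of 38, Klf4, a monocyte factor, 9 of 19, Irf8, which steers monocyte and dendritic fates, 7 of 29, and Fcnb, a ficolin, 6 of 9. Of the 47, 23 (48.9%) had H3K4me1 in HPC, against 37.6% of the unmarked peaks over all genes. Cell cycle genes had 43 of 186 (23.1%, 17.6 to 29.7), or 16.3% (10.9 to 23.6) within 10 kb, with 12 of 44 at Cdk6 and 8 of 17 at Ccnd2, which drive the G1 phase. Inflammatory signalling (17.8%), immediate early (16.1%), interferon and antigen presentation (12.5%) and housekeeping genes (12.7%) had intervals that held the share over all genes. Within 10 kb the immediate early share was 1.85% and the housekeeping share 5.56%. Among the strongest 20000 peaks the lists did not separate in this way, with 2 of 63 unmarked at lymphoid and 2 of 107 at HSC identity genes. The part of read depth in the weak peaks was not tested.

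The stem cell side ordered the lists differently. Over all genes 63.5% of assigned HSC H3K4me1 peaks were unacetylated. Silent developmental regulators had 344 of 363 (94.8%, 92.0 to 96.6), where strength gives 64.4%, and 116 of the 344 (33.7%) overlapped the second K27 set, against 2.38% over all genes. Pax2, Pax7, Sox1 and Hand2, regulators of kidney, muscle, neural and heart development, had 20, 20, 16 and 11 H3K4me1 peaks and no H3K27ac peak assigned. Among the strongest 20000 the list had 24 of 29 unacetylated.

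HSC identity genes had 939 of 1311 unacetylated (71.6%, 69.1 to 74.0), with strength giving 66.3%. Without Mecom, Angpt1 and Mllt3 the share was 63.6%, beside 63.5% over all genes. Meis1 had 36 of 54, Prdm16, a zinc finger factor of HSC, 58 of 81, Slamf1, a surface marker of HSC, 13 of 15, and Cdkn1c, a brake on HSC division, 7 of 7. Gata2 had 8 of 18 and Hlf 6 of 11.

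The lowest unacetylated shares were at immediate early genes, 75 of 193 (38.9%, 32.3 to 45.9), granulocyte and monocyte genes (43.1%), interferon and antigen presentation (45.3%), housekeeping (48.0%), cell cycle (48.1%) and inflammatory genes (49.6%). Strength would give each of these 53.2% to 64.7%. Erythroid (64.3%), megakaryocyte (65.4%) and lymphoid (62.1%) genes lay near the share over all genes. Of the 84 unacetylated peaks at granulocyte and monocyte genes 85.7% had H3K4me1 in HPC, against 67.0% over all genes and 44.9% at HSC identity genes. This was not particular to that list, since stromal markers had 85.6%, mature B cell markers 85.5% and T and NK cell markers 79.7%.

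Markers of cells that HSC and HPC gates should leave out were near the share over all genes. Their unacetylated shares ran from 58.3% (hepatocyte) to 69.7% (mature B cell) and their unmarked shares from 11.2% (stroma) to 21.1% (T and NK cell). Acetylation did occur at some of these markers. Endothelial markers had 98 H3K27ac peaks, 23 of them at Pecam1 and 15 at Kdr, and 70 of the 89 stromal ones were at Runx2. Cd3e, Cd3g, Cd8a and Ncr1 had 0 peaks of both marks. In bulk samples few cells of a type and a low level in all cells cannot be told apart.

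**Figure D4:**
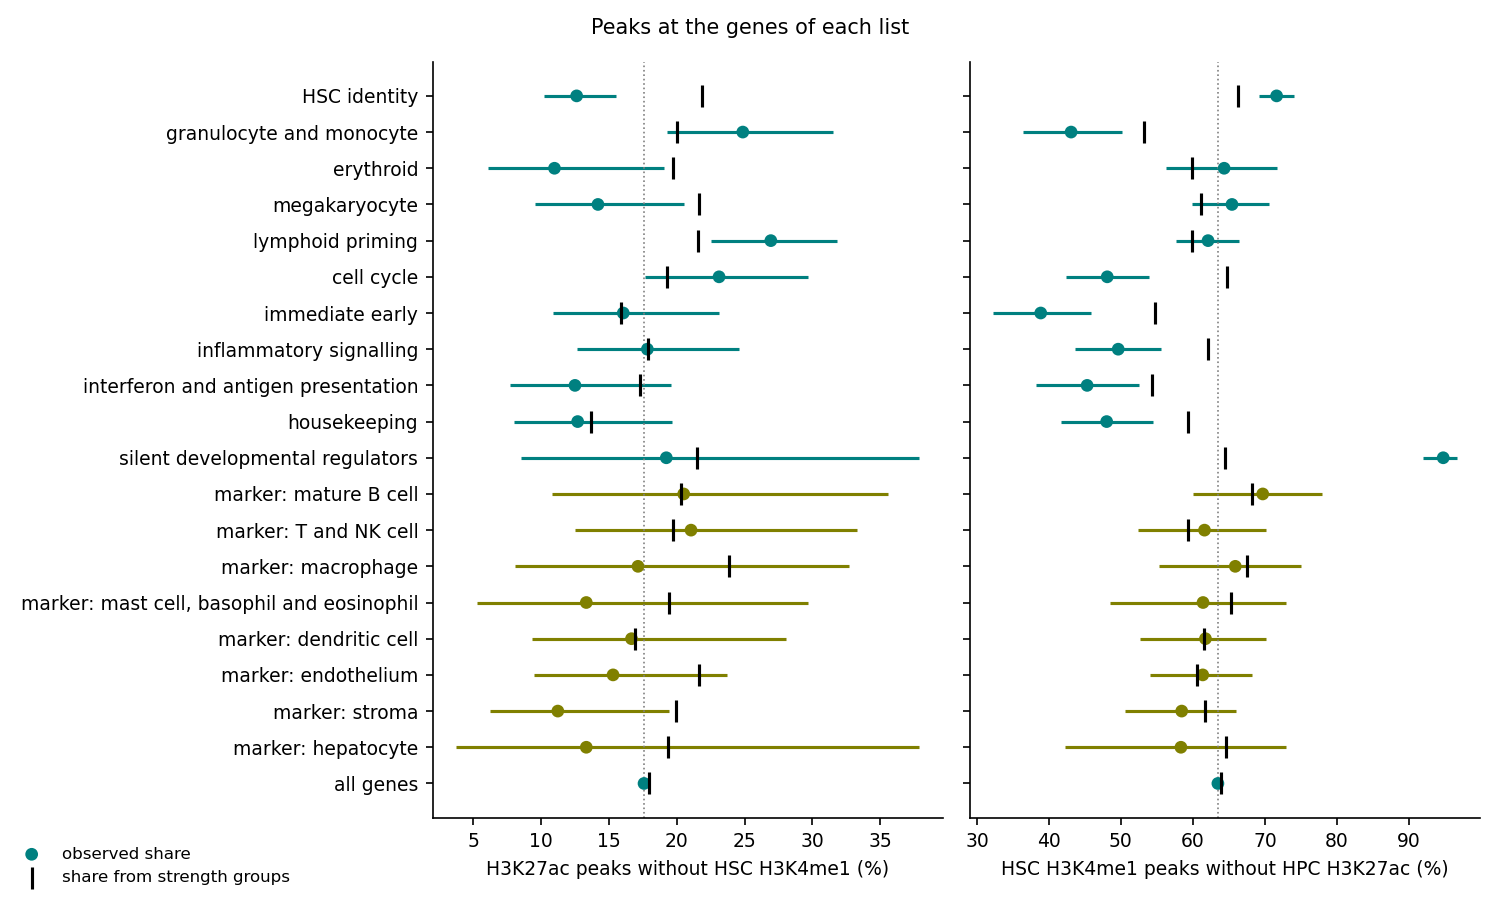
Share (%) of H3K27ac peaks without HSC H3K4me1 (left) and of HSC H3K4me1 peaks without HPC H3K27ac (right) at the genes of each list, with 95% Wilson intervals. Black ticks give the share that the strength groups alone would give and the dotted line is all genes. Silent developmental regulators, at 94.8% unacetylated, lie farthest from their tick. HSC identity genes lie below their tick on the left and above it on the right, as do erythroid and megakaryocyte genes, among others.

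At the gene starts themselves the lists separated further. Of 17492 genes, taken with 1 promoter window of 300 bases each (250 before and 50 after the start), 8698 had a marked H3K27ac peak over it, 392 an unmarked one, 1863 an unacetylated HSC H3K4me1 peak and 6539 none of these. Other starts of a gene were not counted, and genes without a window were left out. So 16 of 19 immediate early, 17 of 22 inflammatory and 21 of 26 interferon genes entered. For housekeeping genes it was 31 of 40 and for HSC identity genes 18 of 28. Immediate early (16 of 16), inflammatory (17 of 17) and interferon genes (21 of 21) had marked H3K27ac at every start taken. Housekeeping genes had it at 30 of 31, the exception being Hprt. Cell cycle genes had it at 21 of 24, with E2f8, an atypical E2F repressor, and Plk1, a mitotic kinase, unmarked. HSC identity genes had it at 14 of 18, with Mllt3 unmarked and Erg unacetylated.

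Over all genes 9090 starts (52.0%) were acetylated, and granulocyte, lymphoid and megakaryocyte genes lay near that share. Erythroid genes had marked H3K27ac at 8 of 19 and unacetylated H3K4me1 at 6: Epor, Klf1, the erythroid master factor, Gfi1b, Rhag, Sphk1 and Sptb. The Klf1 window also touched an acetylated H3K4me1 peak, as did 13 of the 2378 windows of this class. Megakaryocyte genes had 8 of 16 and 4, namely Gp1bb, Ppbp, Treml1 and Tubb1. Lymphoid genes had 11 of 23 and 5, the last being Rag1, Il7r, the interleukin 7 receptor, Pax5 and Bcl11b, commitment factors of B and T cells, and Lef1. Gata3 was counted as acetylated and unmarked by the window taken. Its unmarked H3K27ac peak inside the gene, chr2:9878403-9878678, was only 276 bp wide, with a fold of 3.19. An unacetylated peak, chr2:9887973-9890927, lay 19 bp from an end of the gene and touched the second K27 set. Granulocyte and monocyte genes had 13 of 25, with Fcgr3 and Irf8 unacetylated. Among silent developmental regulators 19 of 21 starts had unacetylated H3K4me1, and hepatocyte markers had no H3K27ac over any of 10 starts.

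**Figure D5:**
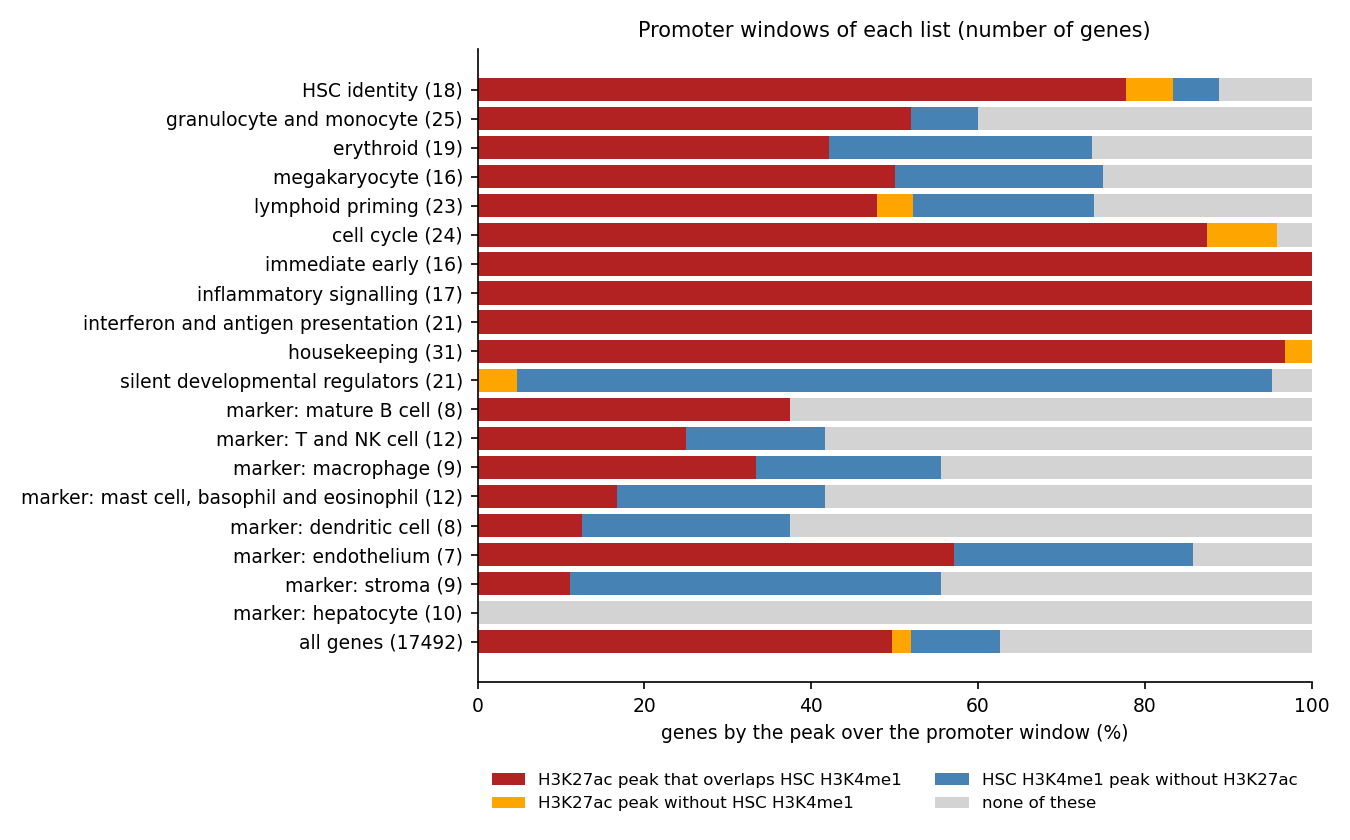
Genes of each list (%, horizontal axis, number of genes in brackets) by the peak over the promoter window of 300 bases. Immediate early, inflammatory and interferon genes with a window are all in the class of H3K27ac with HSC H3K4me1. Of silent developmental regulators, 19 of 21 are in the class of HSC H3K4me1 without H3K27ac.

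Base composition went with the classes at the 21263 windows. Windows with marked H3K27ac held a median of 22 CpG pairs, unmarked ones 17, unacetylated ones 14 and windows with none of these 3, against 13 over all. The letters CCGGAAG, the core bound by ETS factors, were found on either strand in 19.9% of marked, 13.7% of unmarked, 3.87% (3.17 to 4.72) of unacetylated and 2.36% of the remaining windows, against 11.6% of all windows. The letters themselves hold a CpG, and the part of CpG content in these shares was not tested. Among windows with 16 to 25 CpG pairs the shares were 24.0% (22.6 to 25.4), 19.9% (14.1 to 27.2), 4.01% (2.73 to 5.86) and 8.26% (5.81 to 11.6). The intervals of marked and unmarked windows overlapped there.

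Other letters ran otherwise, again on both strands. TATAAA, the core of the TATA box, was in 6.12%, 7.55%, 9.88% and 22.7% of these classes in the same order, against 12.6% of all windows. GGGCGG, the GC box bound by SP and KLF factors, was in 66.1%, 60.6%, 54.7% and 15.2%, against 46.2%. GATAAG, the GATA core, was in 4.58%, 5.92%, 6.77% and 10.2%, against 6.92%, TGTGGT, the RUNX core, in 12.4%, 11.4%, 12.03% and 19.7%, against 14.97%, and TGACTCA, the AP-1 site, in 3.25%, 2.86%, 5.004% and 6.60%, against 4.66%. A match describes letters in the window and not binding. Of the 6 genes printed, 0 held CCGGAAG in its window.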

How the data were processed

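Peaks of H3K4me1 and H3K27ac from adult and fetal mouse HSC and HPC were analysed as deposited, 1 filtered list per group pooled by the authors over its libraries. The submitters' processing notes name Novoalign and MACS2 as tools and mm10 and GRCm38 as builds. Their versions, the peak filter and the use of the inputs in calling are not stated there. The deposited lists give per peak the authors' ratio or fold over background, their −log10 p and −log10 q, and a summit offset. The lowest −log10 p was 2.02 in both adult lists compared. Labels set the groups.

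Overlaps of at least 1 bp were counted with Python 3.11.15, pandas 2.3.3, numpy 2.4.6 and statsmodels 0.14.6, and plotted with matplotlib 3.10.9. They were checked against bedtools 2.31.1 (0 differences) and tested on simulated data, in which 0 of 63108 peaks of the H3K27ac comparison were misassigned. Peaks went to the nearest of 21900 coding genes (RefSeq, GRCm38) no more than 100 kb away, ties to each gene, so that 59592 H3K27ac and 134530 HSC H3K4me1 peaks were assigned. Transcription starts, strand and sequence came from the RefSeq promoter table (GRCm38.p6). Shares given by strength apply the list's share in each of 10 strength groups by −log10 p to a subset's own peaks. No genome sequence was used, so sequence of distal peaks, exons and introns was not analysed here.

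Named were the 10 genes with the most peaks of a class among the strongest 20000, the 5 strongest peaks of a class, up to 3 members of each list with the most class peaks, and up to 10 genes each with all of at least 3 H3K27ac peaks unmarked or with at least 3 of the strongest H3K4me1 peaks and no H3K27ac. Other genes named, list members with few peaks among them, were chosen after their values were seen. Some genes that the rule names are not reported here. Of 407 names in 19 gene lists 1, Mx1, was not matched. The classes and lists were chosen with earlier results of these data known. Alternatives changed the overlap rule, the strength, width and number of peaks, merging, chromosome X, the gene-end window and list members.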

Additional observations from a re-analysis of the deposited data

How the results depend on the processing

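The share of H3K27ac peaks marked, 81.4%, was 67.2% with 50% of the peak covered, 62.2% by summit, 88.3% with gaps of up to 1 kb allowed, 82.8% at a −log10 q of at least 5, 97.0% in the strongest 20000, 69.9% with the strongest 50000 of every list, 82.0% with peaks within 1 kb merged and 81.8% on autosomes. In that order the unacetylated share of H3K4me1 peaks, 64.3%, was 78.9%, 74.9%, 53.5%, 58.4%, 18.9%, 39.3% and 56.0%, and 62.5% without peaks under 200 bp. The gene-end minus distal difference in share marked turned to -20.8 points with 50% covered, -41.2 by summit and -0.494 in the strongest 20000, and the cause was not tested. It was 10.3 with gaps, 11.6 by q, 8.70 with the strongest 50000, 16.1 merged, 14.95 on autosomes, 11.8 with a 2.5 kb window and 14.6 at starts only. For unacetylated peaks that difference kept its sign, at -17.9, -21.7, -32.7, -35.1, -6.85 and -22.9 for the first 6 alternatives, -27.8 with the 2.5 kb window and -42.9 at starts only.

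The HPC H3K4me1 share of unmarked peaks was 34.8% with 50% covered, 27.01% by summit, 46.1% by q, 45.6% in the strongest 20000, 41.8% with the strongest 50000, 39.6% without narrow peaks and 30.3% merged. For unacetylated peaks it was 66.0%, 65.01%, 71.8%, 98.1%, 63.2%, 69.1% and 67.8%, and 76.6% with gaps. The 50% rule also set the classes themselves, so their members changed. With it, unmarked peaks overlapped fetal HSC H3K4me1 in 13.1% and fetal HPC H3K4me1 in 24.4%. They overlapped fetal HPC H3K27ac in 29.6% and the second K27 set in 0.015%. In that order unacetylated peaks had 58.8%, 62.3%, 3.43% and 0.472%. In the strongest 20000, the unmarked share was 1.87% at HSC identity and 3.17% at lymphoid genes, the unacetylated share 20.5% at HSC identity and 82.8% at developmental genes, and 3 genes had only unmarked peaks. Genes within 10 kb gave 99.2% for developmental regulators. Leaving out 3 lymphoid (15.5%) or 3 HSC identity genes (63.6%) was chosen after seeing the data.

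Weak peaks set most of both shares, and depth is unknown. No replicate was left out, since each list is pooled. No paired analysis was possible because the lists carry no replicate columns and no test was run.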

Other observations

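Mostly marked H3K27ac with mostly unacetylated H3K4me1 was the general pattern. Over all genes 17.6% of assigned H3K27ac peaks were unmarked and 63.5% of assigned HSC H3K4me1 peaks unacetylated. The genes that follow are to be read beside these shares, and some lay near them. Gnaq, a G protein alpha subunit, had 18 H3K27ac peaks, of which 1 was unmarked, and 75 of its 92 HSC H3K4me1 peaks were unacetylated. Tab2, an adaptor of the TAK1 kinase, had 44 of 53 unacetylated and 0 of 8 unmarked, and Celf2, an RNA-binding protein, 68 of 83 and 10 of 30. Vwf, the von Willebrand factor of platelets and endothelium, had 27 of 38 unacetylated and 5 of 17 unmarked. Mef2c, a MADS box factor, had 39 of 56 and 4 of 19. Cd2, a T cell adhesion molecule, had 16 of 17 HSC H3K4me1 peaks unacetylated and 0 of 2 H3K27ac peaks unmarked, and Eomes, a T-box factor, 20 of 23 and 0 of 3. These genes were picked after their values were seen.

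At 20 or more HSC H3K4me1 peaks a gene, 18 of 1546 genes had 0 acetylated, among them Nfib, a nuclear factor I gene (26 peaks), and Robo1, an axon guidance receptor (23 peaks). At the same minimum of H3K27ac peaks, 23 of 444 genes had 0 unmarked.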
